A study of Mus musculus with 69 samples.

Results

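Grb10, Ddc and Cobl on mouse chromosome 11 and Gnas and Nespas on chromosome 2 were examined in H3.3K27R mutant and WT mouse embryonic stem cells (ESCs). These 5 genes, of 16263 in the mRNA-seq count table, lie in or beside 2 imprinted loci. They were picked because their difference between mutants and WT was known from these libraries, Grb10 for being lower on a chromosome whose other genes were mostly higher, so that difference is described here without a test. The chromatin accessibility of the loci was taken from the 24 of 89596 ATAC-seq regions that lay within 50 kb of Grb10 (11 regions) or Gnas (13 regions), a region being a stretch covered by overlapping peaks of any of the 6 libraries.

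The study asked what transcription and enhancers do without acetylation of lysine 27 on the replacement histone H3.3. WT cells were of the J1 line, derived from the inner cell mass of a 129S4/SvJae blastocyst. In the H3.3K27R lines, #18 (Mut18) and #43 (Mut43), both alleles of H3f3a and H3f3b, the genes encoding H3.3, carry arginine at that lysine. Each line had 2 mRNA-seq and 2 ATAC-seq libraries, given as biological duplicates, and no treatment is named. Each mutant line is 1 clone, so the mutation and whatever else sets a clone apart from WT cannot be told apart. Cells were grown on feeders and kept off them for the final passages before harvest. Read counts per gene do not show the edited codon, so the labels were not checked by it.

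Imprinted genes are expressed from 1 parental allele, according to DNA methylation laid down in the germ line. Grb10 encodes an adaptor that binds the insulin and IGF1 receptors and restrains their signalling. In most tissues it is transcribed from the maternal allele at an upstream promoter, and in neurons from the paternal allele at downstream promoters beside a maternally methylated CpG island. Its neighbour Ddc encodes the decarboxylase that makes dopamine and serotonin and is imprinted in the heart, and Cobl encodes an actin nucleator. Gnas encodes the stimulatory G protein subunit Gsα, which switches on adenylyl cyclase, and its locus has several start sites. Nesp transcripts come from the maternal allele, whereas XLαs, exon 1A and the antisense RNA Nespas come from the paternal allele, and Gsα itself comes from both alleles in most tissues. J1 is an inbred line and the table has 1 count per gene, so neither the parental alleles nor the start sites could be told apart in the counts.

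The sequences below come from 4 of the accessible regions and carry the contrasts described further on. The bases are the plus strand of GRCm38 (RefSeq), 5′ to 3′, with CpG in capitals, and annotated exons were left out. The first precedes the upstream Grb10 start (Grb10-201), at chr11:12037402-12037591, in a region with a weak peak in the WT libraries only. The next is from the region at the downstream Grb10 starts, inside an intron of the upstream transcripts, at chr11:12025596-12025837, open in every library. The third precedes the Nespas start, at chr2:174295473-174295772, also open in every library. The last is the intronic Gnas region at chr2:174311719-174311949, which also had weak peaks in the WT libraries only. A missing peak does not show that a region was closed.
Grb10 upstream start: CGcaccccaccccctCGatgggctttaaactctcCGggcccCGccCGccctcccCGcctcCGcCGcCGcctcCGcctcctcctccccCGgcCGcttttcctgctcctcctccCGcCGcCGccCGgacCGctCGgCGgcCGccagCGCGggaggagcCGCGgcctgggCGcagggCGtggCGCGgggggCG
Grb10 downstream starts: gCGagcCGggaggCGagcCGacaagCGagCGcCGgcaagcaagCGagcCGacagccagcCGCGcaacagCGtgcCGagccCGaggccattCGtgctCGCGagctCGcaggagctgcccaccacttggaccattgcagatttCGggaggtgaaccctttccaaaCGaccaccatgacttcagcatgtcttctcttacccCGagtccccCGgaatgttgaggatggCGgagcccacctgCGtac
Nespas start: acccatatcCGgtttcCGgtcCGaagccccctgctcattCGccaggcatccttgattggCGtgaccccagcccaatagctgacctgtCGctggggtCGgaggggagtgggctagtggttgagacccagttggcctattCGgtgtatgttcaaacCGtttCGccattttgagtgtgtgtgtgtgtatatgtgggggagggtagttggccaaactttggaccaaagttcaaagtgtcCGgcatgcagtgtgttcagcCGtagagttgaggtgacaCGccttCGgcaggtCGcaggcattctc
Gnas intron, WT only: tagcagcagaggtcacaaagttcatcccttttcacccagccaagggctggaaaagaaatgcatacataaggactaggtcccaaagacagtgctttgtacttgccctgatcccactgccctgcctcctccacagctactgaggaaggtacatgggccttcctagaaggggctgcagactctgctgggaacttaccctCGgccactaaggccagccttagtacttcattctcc
CpG dinucleotides numbered 29 in the 190 bases before the upstream Grb10 start and 24 in the 242 bases at the downstream starts. The Nespas stretch held 15 in 300 bases. The intronic Gnas stretch held 1 in 231 bases.

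Library totals lay between 14992756 and 15143998 counts in the deposited table. Whether reads were brought to a like number before counting is not given in the sources used here, so these totals need not be the sequencing depth. Of the table's genes, 14061 passed edgeR's filter on low counts, all 5 members among them. Between replicates of a line the chi-square per gene was 3.02 for WT, 1.93 for Mut18 and 1.71 for Mut43, above the 1 that counting alone gives. Of 17 ESC markers, fixed as a list, all were measured, and their summed normalised counts were 78799 to 81387 in WT and 86713 to 91250 in the mutants. The median log2 fold change of chromosome 11 genes, mutants over WT, was 0.39 (0.38 in Mut18 and 0.38 in Mut43), and those of the other autosomes lay between -0.09 and 0.07.

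Grb10 (ENSMUSG00000020176.17, GRCm38 chr11:11930508-12038683, minus strand) was abundant in WT and low in both mutant lines. Its normalised read counts were 4163 and 4065 in WT, against 290.4 and 286 in Mut18 and 226 and 238 in Mut43. All 4 mutant libraries were thus far below both WT libraries, and the lowest WT value was 14.0 times the highest mutant value. The log2 fold change was -3.98 ± 0.060 (SE, 2 WT and 4 mutant libraries), a 15.8-fold lower level. Against WT it was -3.83 in Mut18 and -4.15 in Mut43. None of the 1184 other tested genes of chromosome 11 had a lower value, and Grb10 ranked 10 from the bottom among all 14061. Relative to the median of its chromosome, the difference was -4.37.

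Ddc (ENSMUSG00000020182.16, chr11:11814101-11898144, minus strand) begins 32.4 kb beyond the 3′ end of Grb10 and differed in the opposite direction. Its counts were 289 and 293 in WT, against 587 and 597 in Mut18 and 613 and 636 in Mut43, with no overlap between the groups. The log2 fold change was 1.06 ± 0.072, or 0.68 above the chromosome median, and 83 of the chromosome's tested genes lay higher. Cobl (ENSMUSG00000020173.17, chr11:12236608-12464960, minus strand), 198 kb on the other side, had 1350.3 and 1271 counts in WT, against 1676 and 1688 in Mut18 and 1649.6 and 1733 in Mut43. Its log2 fold change of 0.36 ± 0.045 was -0.022 relative to the median of the chromosome, so its sign depends on that scaling.

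Gnas (ENSMUSG00000027523.19, chr2:174284320-174346744, plus strand) was lower in the mutants, by less than Grb10. Its counts were 4663 and 4809 in WT, against 1921 and 1849 in Mut18 and 1501 and 1512 in Mut43. The 3 lines formed 3 separate pairs, with WT highest and Mut43 lowest. The log2 fold change was -1.48 ± 0.068, a 2.79-fold lower level, with -1.33 in Mut18 and -1.65 in Mut43. On chromosome 2, where the median was -0.03, 29 of 1105 tested genes lay lower.

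Nespas (ENSMUSG00000086537.7, chr2:174281237-174295436, minus strand), the RNA transcribed across the Nesp start against the direction of Gnas, had few reads. Its counts were 33.2 and 39.2 in WT, against 47.1 and 54.6 in Mut18 and 58.0 and 50.7 in Mut43. All mutant values were above both WT values, but the gap between 39.2 and 47.1 was close to the distance between replicates, and the log2 fold change of 0.54 ± 0.20 was the least precise of the 5. Gnas and Nespas share 988 exonic bases on opposite strands, and whether the counting used strand is not given in the sources used here, so reads of those bases cannot be assigned with certainty. Gnas also shares 1469 exonic bases with the antisense gene Gm20721, not analysed here.

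**Figure D1:**
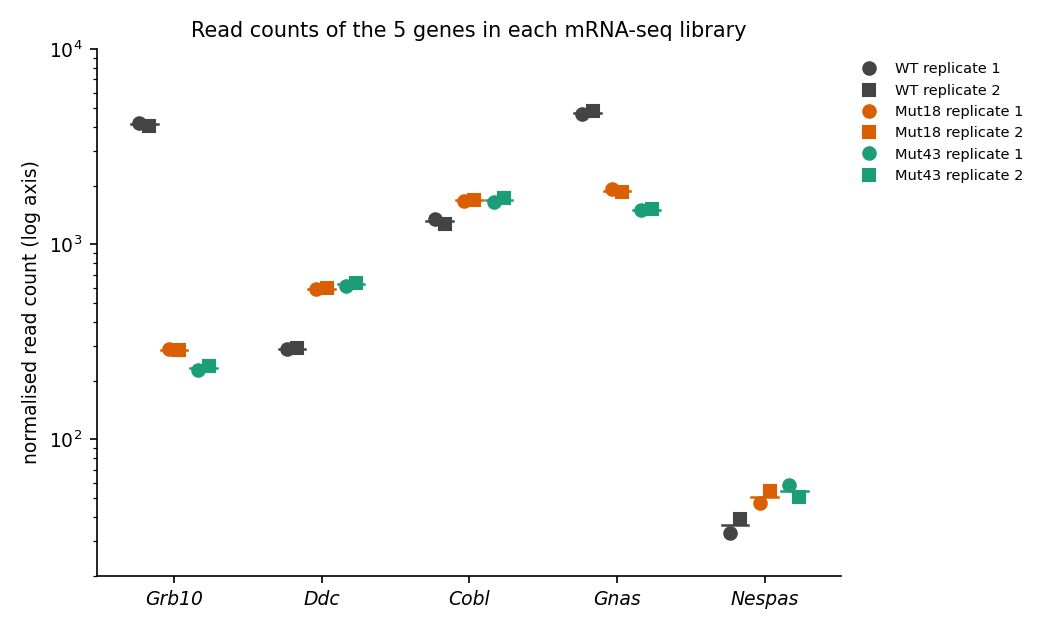
Normalised read counts (log axis) of the 5 genes in each of the 6 mRNA-seq libraries. Circles and squares are replicates 1 and 2, and short lines are line means. Grb10 drops from 4163 and 4065 in WT to between 226 and 290.4 in the mutants and Gnas to between 1501 and 1921, while Ddc, Cobl and Nespas lie above WT in all 4 mutant libraries.

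Among all tested genes, 30.4% had every mutant library below both WT libraries and 29.4% had every mutant library above them. By an adjusted p under 0.05 and a change over 2-fold, 5.65% of tested genes were lower and 3.28% higher in the mutants. On chromosome 11 alone the shares were 1.69% lower (20 of 1185 genes) and 7.93% higher. By these criteria Grb10 and Gnas were lower, Ddc was higher, and Cobl and Nespas were higher by less than 2-fold. Since the 5 genes were picked on this contrast, nothing is read from these counts.

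Counts were also divided by the length of all annotated exons of a gene together, 9089 bases for Grb10 and 11186 for Gnas. A single transcript can be shorter, and transcripts were not told apart, so ranks between genes depend on this length. Per kb of exon, Grb10 and Gnas stood at 453 and 423 normalised counts in WT, the highest of the 5. Cobl followed at 161, Ddc at 65.2 and Nespas at 11.5. In the mutants the order became Cobl (207), Gnas (152), Ddc (136), Grb10 (28.6) and Nespas (16.7). Grb10 thereby moved from the top to below Ddc in every mutant library. In WT, Grb10 at 458 and 447 per kb and Gnas at 417 and 430.0 lay closer to each other than to any other member.

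The tested genes around each locus were listed next. Within 1 Mb of Grb10, 5 other genes were tested and 4 were higher in the mutants, 2 of which (Ddc and Cobl) are members picked on this contrast. On the whole of chromosome 11, 16.5% of tested genes had a lower value in the mutants, so a neighbour that was higher was like most of the chromosome. Fignl1, a AAA ATPase involved in DNA repair, had a log2 fold change of 0.58 ± 0.044, with means of 1984 in WT and 2957 in mutants (adjusted p = 1.38e-09). The antisense gene 1700042O10Rik, which lies within Ddc without sharing exonic bases, rose by 1.60 ± 0.21 (adjusted p = 2.83e-06). Its low counts were 27.3 and 25.5 in WT, against 72.1 and 74.8 in Mut18 and 72.3 and 101 in Mut43. The exception was Ikzf1, a lymphoid transcription factor with few reads in ESCs, which fell by 1.04 ± 0.37 on the log2 scale (adjusted p = 0.0247). Its mean counts were 29.8 ± 2.0 (SD, n = 2) in WT and 14.4 ± 9.2 (SD, n = 4) in the mutants, and one mutant library, at 26.5, lay near the WT values of 31.2 and 28.4.

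Around Gnas, 12 genes other than Nespas were tested within 1 Mb, and their log2 fold changes lay between -0.62 (Gm14391) and 0.14 (Npepl1). The closest, Nelfcd, a subunit of the NELF complex that pauses RNA polymerase II, had a value of -0.09 ± 0.052 (adjusted p = 0.156). Ctsz, which encodes the lysosomal protease cathepsin Z, fell by 0.28 on the log2 scale (adjusted p = 0.000712) and was the only 1 of the 12 past the threshold. Stx16, on the far side, had -0.05 ± 0.047 (adjusted p = 0.420).

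**Figure D2:**
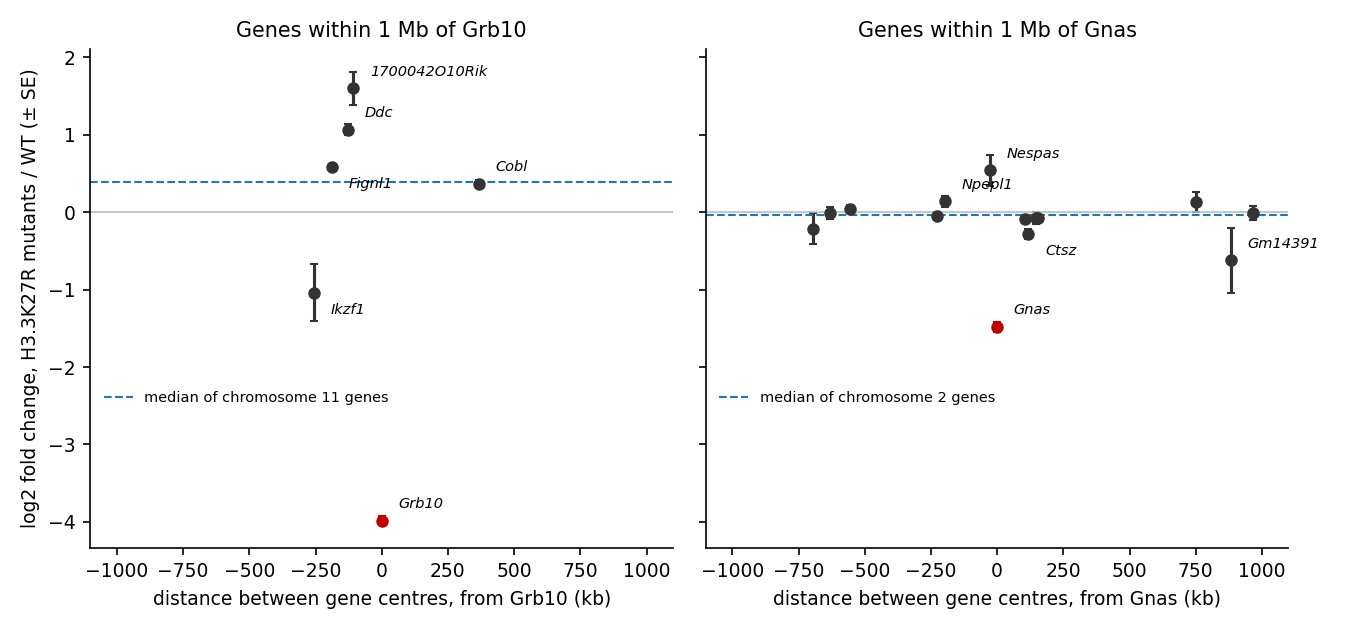
Log2 fold change of mutants over WT (points, bars are SE) for each tested gene within 1 Mb of Grb10 (left) or Gnas (right), against the distance between gene centres in kb. The dashed line is the median of the chromosome. Grb10 at -3.98 is below the line at 0.39 while Ddc and 1700042O10Rik lie above it, and Gnas at -1.48 stands apart from neighbours between -0.62 and 0.54.

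The members were not chosen by the difference between the mutant lines, so this contrast was tested. Of all tested genes, 46 (0.327%) differed between Mut18 and Mut43 at an adjusted p under 0.05 (edgeR's quasi-likelihood test, 2 libraries a line), and Gnas was one of them. It was higher in Mut18 by 0.32 ± 0.050 on the log2 scale (95% interval 0.22 to 0.43, adjusted p = 0.000814). The call was lost without Mut18 replicate 1 (0.30, adjusted p = 0.170), without Mut43 replicate 1 (0.32, adjusted p = 0.128) and without Mut43 replicate 2 (0.33, adjusted p = 0.198), while the size of the difference hardly moved.

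Grb10 was higher in Mut18 by a like amount, 0.31 ± 0.087 (95% interval 0.13 to 0.49), but did not pass after adjustment (adjusted p = 0.165). Ddc differed by -0.08 (95% interval -0.23 to 0.08, adjusted p = 0.853) and Cobl by -0.01 (-0.11 to 0.10, adjusted p = 0.985). The wide interval of Nespas, -0.54 to 0.35 around -0.10, would hold a difference as large as that of Gnas (adjusted p = 0.948). Both Mut18 libraries lay above both Mut43 libraries for Gnas and Grb10, a complete separation also seen, in either direction, in 38.5% of all tested genes.

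**Figure D3:**
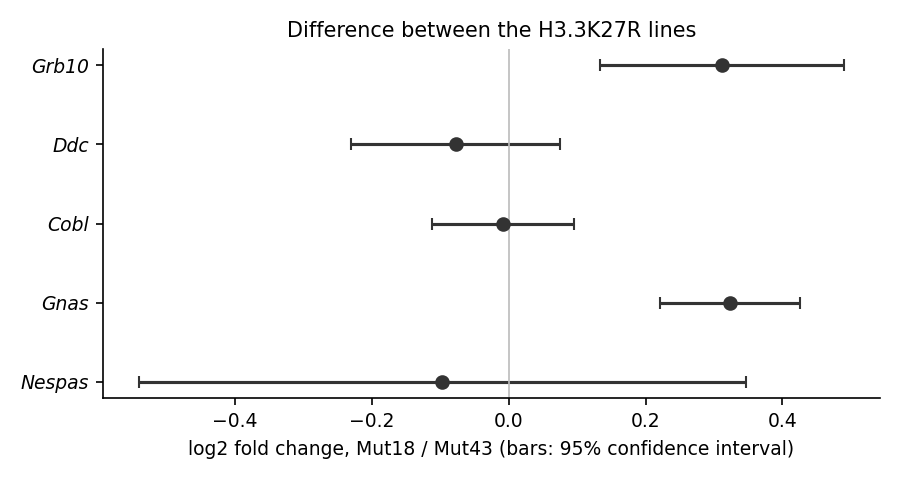
Log2 fold change of Mut18 over Mut43 for the 5 genes, with 95% confidence intervals (2 libraries a line). Gnas (0.32) and Grb10 (0.31) are higher in Mut18 with intervals above 0, and the intervals of Ddc, Cobl and Nespas cross 0.

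Fibroblast genes moved with the same groups. Of 25 markers of fibroblasts, the cell type of feeders, 23 were tested, 18 were lower in the mutants at an adjusted p under 0.05 (24.5% of all tested genes), 1 (Fn1) was higher (23.5%) and 4 did not pass. Their median log2 fold change was -0.78, beside -0.0041 for all tested genes. Summed normalised counts were 31408 and 28449 in WT, against 25067 and 24319 in Mut18 and 22028 and 21359 in Mut43, and no marker of the list was at 0 in every library. Like Gnas, the sum was higher in Mut18 than in Mut43. In the test between the mutant lines 4 markers (Acta2, Col1a1, Tagln and Vim) passed, each higher in Mut18, beside 0.327% of all tested genes. The 2 WT libraries were unlike each other in part of this list, with 5 of the 23 tested markers over 2-fold higher in WT replicate 1. The largest differences, 7.40-fold and 8.13-fold, were those of the collagen genes Col6a1 (428 and 57.8) and Col6a2 (303 and 37.2). Other markers differed little between WT replicates 1 and 2, such as Tagln (1.01-fold) and Vim (1.09-fold). Grb10 (1.02-fold) and Gnas (0.97-fold) also differed little. Without WT replicate 1, the log2 fold change was -3.96 for Grb10 and -1.501 for Gnas. In bulk RNA, fewer cells of a type and less RNA per cell cannot be told apart, and the part of these cells in the Grb10 and Gnas values was not tested.

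Of 13 neural markers, listed because neurons use the downstream Grb10 promoters, 8 were tested, 3 rose and 5 fell, beside 23.5% and 24.5% of all tested genes. Nes, an intermediate filament gene of neural progenitors, went from 2543 ± 127 (SD, n = 2) in WT to 890 ± 109.6 (SD, n = 4) in the mutants. Tubb3, a neuronal tubulin, rose from 1212 to 1879. Neurog2, Dcx and Slc6a3 were not among the 16263 counted genes, so nothing can be said of them. These markers also moved with the groups, and their part in the Grb10 values was not tested.

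Accessibility at the Grb10 locus was described from the authors' peaks, whose fold enrichment over background was set by MACS2 in each library. With 2 WT and 4 mutant libraries an exact permutation test whose one-sided p is doubled cannot give a p below 0.133, and none was run. The peak lists hold no reads, so the depth behind a peak is unknown. They held 63588 to 78536 peaks, most in WT replicate 1, and chromosome 11 took 7.17% and 7.19% of the peaks in WT and 8.29% to 8.34% in the mutants.

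At the upstream Grb10 start the groups differed in which libraries had a peak. The region chr11:12037260-12037591, which overlaps the first exon of Grb10-201, had a fold enrichment of 4.19 and 5.01 in the WT libraries and no peak in any of the 4 mutant libraries. A region 0.5 kb upstream of the start had a peak of 4.49 in WT replicate 1 alone. Another Grb10 start, that of Grb10-206, is annotated further upstream at chr11:12038683, and no peak of any library covered it. A peak in both WT and no mutant library was found in 3.25% of all regions and in 0.927% of those on chromosome 11. The 2 WT peaks were weak, with a -log10 q of 10.1 and 10.3. Ranking each list by q and keeping 63588 peaks from each, the length of the shortest list, set a limit of 13.5 in WT replicate 1, so that its peak was dropped and only that of WT replicate 2 remained.

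The downstream Grb10 starts were open in all lines. The region chr11:12025596-12026299, 25 bp from the start of Grb10-209, had 8.65 and 8.50 in WT, against 6.91 and 7.67 in Mut18 and 7.81 and 8.83 in Mut43. WT and mutant values overlapped there, and the means differed by less than the spread among the mutant libraries. Of the 11 regions, 7 had a peak in all 6 libraries, as did 54.7% of all regions and 56.5% of those on chromosome 11, 1 in both WT and no mutant, none in all mutants and no WT (0.733% of all regions), and 3 in some libraries of either kind. The strongest, 94.6 kb and 88.2 kb downstream of the upstream start and inside the gene, had values from 11.2 to 14.0 over the 6 libraries.

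In 3 of the 7 shared regions every mutant value was above both WT values, as in 14.5% of shared regions genome-wide and 10.4% on chromosome 11, and in none were all below (7.52% and 7.56%). After division by the median fold enrichment of the chromosome in each library, 2 of the 3 kept this order (9.21% of shared regions genome-wide). One was in an intron of Ddc, 863 bp from the start of Ddc-207, with 3.65 and 4.25 in WT, against 4.95 and 4.89 in Mut18 and 5.01 and 4.96 in Mut43. The mutants were thus 1.25-fold higher. The other was in Grb10, 63.9 kb into the gene, with 8.52 and 8.80 in WT and 9.28 to 10.0 in the mutants.

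Ddc had no peak at its main starts in any library. A region at its internal start Ddc-206 was shared by all 6, at 4.75 and 5.32 in WT and 5.11 to 5.62 in the mutants. The Cobl promoter (chr11:12464182-12464779) was open throughout, at 3.79 and 5.59 in WT, against 4.73 and 5.46 in Mut18 and 5.23 and 4.19 in Mut43, and the WT values spanned those of the mutants.

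At Gnas the starts differed among themselves more than the lines did. The Nespas start (chr2:174295308-174295783) was shared by all libraries, at 5.30 and 6.20 in WT, against 6.25 and 5.41 in Mut18 and 6.16 and 6.46 in Mut43. The Nesp start carried a peak of 3.15 in WT replicate 1 only. Close to it, a region at the start of Gnas-215 was shared by all, at 4.73 and 4.84 in WT and 4.67 to 6.08 in the mutants. No peak lay within 500 bp of the XLαs start in any library. The exon 1A starts had peaks of 3.24 in WT replicate 1, 3.59 in Mut18 replicate 2, and 4.53 and 4.65 in the Mut43 libraries, and the other 2 libraries had none.

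The Gsα start (chr2:174329541-174330096) had values of 5.03 and 5.69 in WT, against 4.56 and 4.98 in Mut18 and 4.01 in Mut43 replicate 1. Mut43 replicate 2 had no peak there. The order WT, Mut18, Mut43 is that of the Gnas counts, but 1 value is missing, and the presence of a peak also varies with how many peaks a list holds. Some 0.68 kb downstream, WT replicate 1 (3.57) and Mut18 replicate 2 (3.84) had a further peak.

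Of the 13 regions near Gnas, 4 had a peak in all 6 libraries, against 54.1% of regions on chromosome 2. One, the intronic region at chr2:174311719-174311949, had a peak in the WT libraries alone (5.04 and 4.81), against 3.29% on the chromosome. None had one in all mutants and no WT (0.603%), and 8 were mixed. The WT-only peaks were weak here too, with a -log10 q of 12.2 and 8.21, and a minimum of 10 removed that of WT replicate 2. Regions on both sides of this intronic one also had peaks in some mutant libraries. At chr2:174311029-174311292 the values were 5.35 and 5.75 in WT, 6.91 in Mut18 replicate 2 and 7.21 in Mut43 replicate 1. At chr2:174312214-174312383 they were 4.67 and 6.76 in WT and 7.24 in Mut18 replicate 2. Mut18 replicate 1 and Mut43 replicate 2 had no peak in either. In 2 of the 4 shared regions all mutant values lay above both WT values (14.8% on chromosome 2) and in none below (7.07%). One of the 2, in the Nespas gene, was 1.23-fold higher, with 3.31 and 3.92 in WT, against 4.37 and 4.35 in Mut18 and 4.22 and 4.94 in Mut43, and it kept this order relative to the chromosome median.

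**Figure D4:**
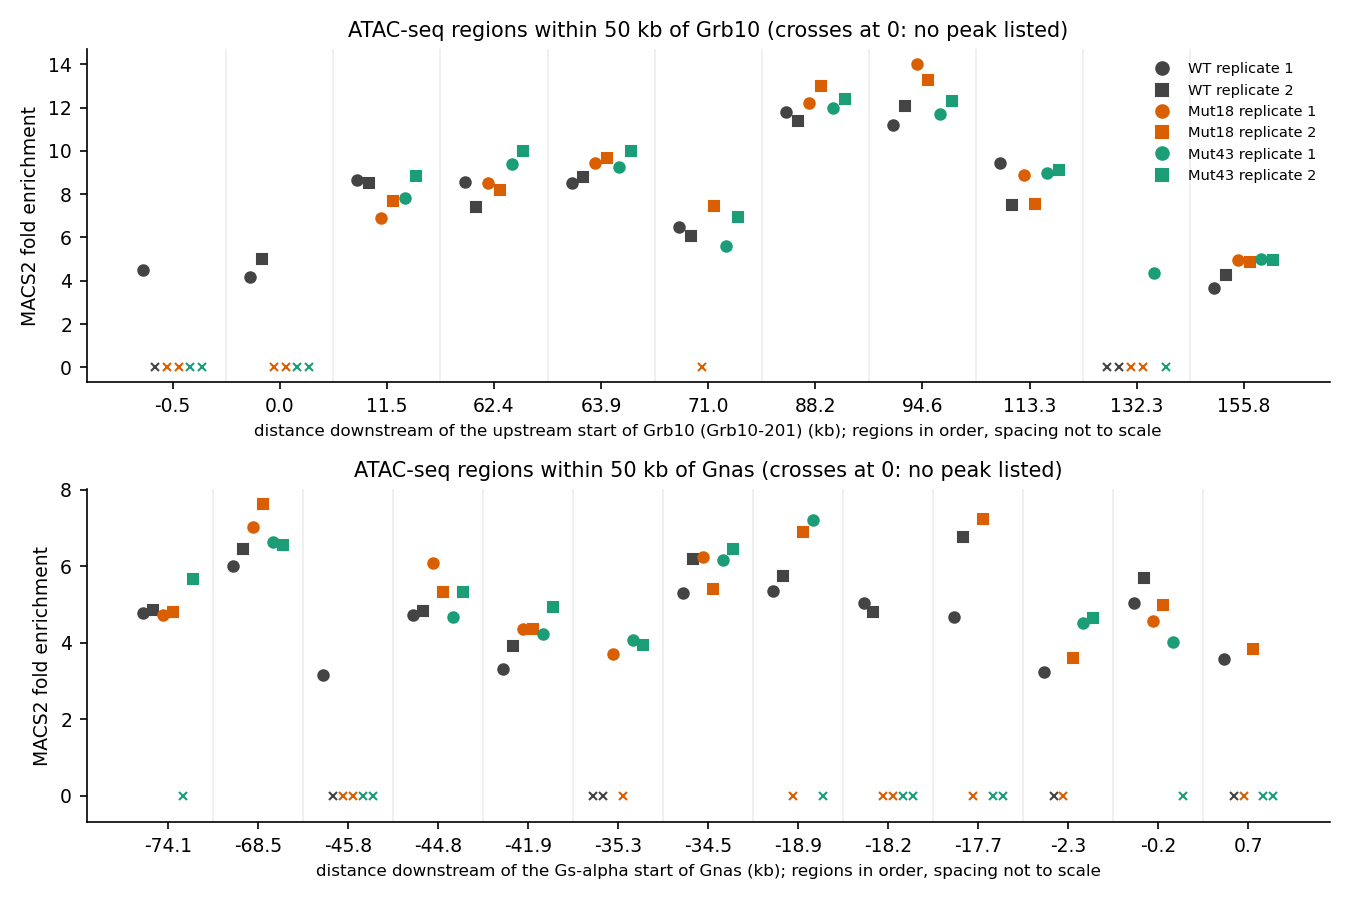
MACS2 fold enrichment in each ATAC-seq library for the 11 regions near Grb10 (top) and the 13 near Gnas (bottom), ordered by their distance in kb downstream of the upstream Grb10 start or the Gsα start. Crosses at 0 mark libraries without a peak. At 0.0 kb of Grb10 only the WT libraries have values (4.19 and 5.01), and at -0.2 kb of Gnas Mut43 replicate 2 is missing.

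Sequence was not used to pick the regions. In windows of 300 bases centred on the summit, the upstream Grb10 start held 37 CpG, a number reached by 1.8% of all 89596 regions, whose median was 6. The Gsα start held 33, the exon 1A starts 28, the downstream Grb10 starts 27, the Gnas-215 start 26 and the Nespas start 16. The Gnas region with peaks only in WT held none in its window. The other intronic or distal regions of the 2 loci held 1 to 9, except for promoter-flanking windows. TGCCGC, the core bound by the imprint protector ZFP57 when methylated, was searched on both strands. It occurred once, in the upstream Grb10 window, and in 9.32% of all regions. The CTCF core was in none of the 24 windows and in only 16 of all regions. A match or its absence describes letters and not binding.

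Insulin and IGF signalling, in which Grb10 acts, was examined as a list of 45 genes, all tested. At an adjusted p under 0.05, 11 rose, 20 fell and 14 did not pass. By over 2-fold, 5 fell and none rose, beside 5.65% lower and 3.28% higher among all tested genes. Among all tested genes 23.5% rose and 24.5% fell, and the median of the list was -0.08. Of the 7 listed genes on chromosome 11, 5 rose and 2 fell. On that chromosome 16.5% of all tested genes had a lower value in the mutants, past the threshold or not.

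Both receptors that Grb10 binds fell. Insr went from 344 and 353 in WT to between 202 and 207 in the mutants (log2 fold change -0.76 ± 0.078, adjusted p = 9.05e-08). Igf1r went from 662 and 642 to between 429 and 489.6 (-0.53 ± 0.068, adjusted p = 1.73e-06). The adaptors that carry the receptor signal inward, Irs1, Irs2 and Irs4, all fell, by 1.01 to 2.03 on the log2 scale. Irs2 had 284 and 276 counts in WT, against 104 and 138 in Mut18 and 92.6 and 83.2 in Mut43 (adjusted p = 1.86e-08). Igfbp5, an IGF binding protein, fell by 1.11 ± 0.18 (adjusted p = 2.57e-05).

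The closest relatives of Grb10 differed in sign before any scaling to the chromosome. Grb7, on chromosome 11, rose by 0.27 ± 0.066 (adjusted p = 0.00178). Its counts were 644 and 743 in WT and 805 to 900.1 in the mutants. The median of chromosome 11 genes was 0.39, so Grb7 lay below it and its direction depends on that scaling. Grb14 fell by 0.80 ± 0.24 (adjusted p = 0.00942) at counts of 46.9 and 36.3 in WT and 18.2 to 28.5 in the mutants. Of the GIGYF proteins, which bind Grb10, Gigyf2 rose by 0.14 ± 0.051 (adjusted p = 0.0258) and Gigyf1 had 0.11 ± 0.051 (adjusted p = 0.0881). The largest rises in the list were Pik3cb, a PI3-kinase catalytic subunit (0.73 ± 0.057, adjusted p = 2.28e-09), and Grb2, the adaptor to Ras, on chromosome 11 (0.61 ± 0.045, adjusted p = 9.28e-10).

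For Gnas, 44 of 47 listed genes of Gs and cAMP signalling were tested. Of these, 10 rose, 21 fell and 13 did not pass, with 6 falling over 2-fold and none rising as much, and the median was -0.18. The same shares of all tested genes were 23.5% higher, 24.5% lower and 5.65% lower by over 2-fold. Without WT replicate 1 the number that rose was 6 and the number that fell 16. Of 7 adenylyl cyclases, the enzymes Gsα switches on, 5 fell, 1 rose and 1 did not pass. For Adcy5 (40.0 and 12.7 in WT, 10.1 to 13.2 in the mutants) WT replicate 2 lay within the mutant range. The same held for Adcy6 (211 and 140 in WT, 121 to 154 in the mutants). For Adcy1, Adcy2 and Adcy7 all mutant values were below both WT values, with low counts for Adcy2 (24.4 and 18.6 in WT). Adcy9 was the one that rose, from 59.6 and 51.9 in WT to between 71.2 and 106 (0.64 ± 0.18, adjusted p = 0.00504). Of 6 phosphodiesterases, which degrade cAMP, 4 fell and 2 rose.

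The subunits of protein kinase A, the main target of cAMP, were divided, with 2 higher, 2 lower and 2 not past the threshold. Prkar2b, a regulatory subunit, fell by 1.69 ± 0.21 on the log2 scale (adjusted p = 1.33e-06), although its WT libraries were far apart at 306 and 139, against 62.1 to 83.1 in the mutants. Pkia, an inhibitor of the kinase, fell by 1.61 ± 0.16 (adjusted p = 8.60e-08), from 168 and 166 to between 39.6 and 73.1. Akap1, on chromosome 11, an anchor that holds the kinase at mitochondria, rose by 0.82 ± 0.050 (adjusted p = 6.38e-11). Gnal, the close relative of Gnas that replaces it in olfactory neurons, had -0.41 ± 0.24 (adjusted p = 0.160). Its counts were 31.2 and 51.0 in WT and 25.3 to 36.0 in the mutants.

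Of 18 genes for making and breaking down aromatic amines, the pathway of Ddc, 16 were in the table and 12 were tested. Here 2 rose, 4 fell and 6 did not pass, none changed over 2-fold, and the median was -0.26, beside 23.5% rising and 24.5% falling among all tested genes. Without WT replicate 1 none rose and 1 fell. The 2 that rose, Pcbd1 (0.48 ± 0.19, adjusted p = 0.0407) and Qdpr (0.12 ± 0.047, adjusted p = 0.0441), recycle the tetrahydrobiopterin cofactor of the hydroxylases that act before Ddc. Maoa, which degrades the amines, fell by 0.12 ± 0.048 (adjusted p = 0.0399). Th, which makes the substrate that Ddc turns into dopamine, was below the filter on low counts. Gch1, the first enzyme of cofactor synthesis, had 21.5 and 27.4 counts in WT and 12.2 to 22.0 in the mutants (-0.44 ± 0.29, adjusted p = 0.221).

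Of 38 genes of actin nucleation listed around Cobl, 34 were tested, of which 10 rose, 15 fell and 9 did not pass, with a median of -0.09, beside the same shares of all tested genes. Only Fmnl1 rose and only Cobll1 fell over 2-fold. Cobll1, the relative of Cobl on chromosome 2, had 152 and 143 counts in WT, against 76.1 and 62.7 in Mut18 and 61.1 and 77.1 in Mut43 (-1.09 ± 0.14, adjusted p = 1.38e-06). Fmnl1, a formin on chromosome 11, rose by 1.05 ± 0.15 (adjusted p = 1.01e-05). Among 8 subunits of the Arp2/3 complex, 4 rose, 3 fell and 1 did not pass.

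To place the pattern of Grb10 over the 6 libraries, 11075 genes with a mean of at least 50 normalised counts were ranked by their Pearson r with it, on log2(normalised count + 1). Ank2, an ankyrin (r = 0.9996), Fmnl2, a formin (0.9995), Fgf5, a growth factor of the primed epiblast (0.9994), Rcbtb2 (0.9994) and Dusp10, a MAP kinase phosphatase (0.9991), were the closest, and none is on chromosome 11. Their log2 fold changes were between -2.58 (Fgf5) and -0.77 (Fmnl2), smaller than that of Grb10. With 3 lines of 2 libraries, r mostly records the order of the lines, and 218 genes had an r over 0.99.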

How the data were processed

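The analysis used mRNA-seq and ATAC-seq of WT, Mut18 and Mut43 (2 libraries each). Groups came from the sample titles. Other samples of the study were not used here. The members and gene lists were chosen with earlier results of these data known. The authors deposited read counts per gene, made against mm10 joined to dm6. Their processing notes name STAR, DESeq2, Bowtie2 2.3.4.2, MACS2 and deepTools 3.3.0, without saying how counting treated strand. The authors deposited MACS2 peaks per library, with fold enrichment as a ratio, and -log10 p and -log10 q values.

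Counts were filtered (minimum count 10, total 15), normalised by TMM and fitted with edgeR 4.0.16 (quasi-likelihood, Benjamini-Hochberg adjustment over 14061 genes) in R 4.3.3. SE is the log2 fold change over the root of F. Procedures were tested on simulated data. Symbols were placed by GENCODE (15616) or RefSeq (559), and 28 ambiguous and 60 unmatched ones were left unplaced. Peaks overlapping by 1 bp were merged with pandas 2.3.3. Named genes are the members, their relatives and partners, tested neighbours within 1 Mb, the 2 most risen and 2 most fallen per list with a mean of at least 50, and the 5 genes most like Grb10. Other genes named were chosen after their values were seen. Alternatives were DESeq2 1.42.0, other scalings and filters, a replicate block, each library left out, and other peak thresholds, overlaps and windows. P-values measure the spread between these libraries only.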

Additional observations from a re-analysis of the deposited data

Results flagged for a closer look

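Of 18 sets of 4 mutant values checked for a lone extreme, 1 stood apart, and chance alone flags about 1 in 20. It was the ATAC-seq region 113 kb downstream of the upstream Grb10 start, where Mut18 replicate 2 had a fold enrichment of 7.54 against 8.88, 9.00 and 9.12 in the other mutant libraries, a gap of 0.848 of the range. The WT libraries there had 9.44 and 7.50, so the low value is within the range of WT.

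Gnas differed between the mutant clones, being 0.32 higher on the log2 scale in Mut18 than in Mut43 (adjusted p = 0.000814). Among the other genes named from the lists, Nes (0.31, adjusted p = 0.0128) and Map2 (0.66, adjusted p = 0.0256), both neural markers, were higher in Mut18. Sfmbt2 (-0.23, adjusted p = 0.0453), an imprinted gene of chromosome 2, was higher in Mut43. Of the 46 tested imprinted genes at other loci, 4 passed this test, beside 0.327% of all tested genes. The 3 besides Sfmbt2 were higher in Mut18, as Gnas was: Igf2 (0.35), Cdkn1c (0.37) and Peg3 (0.34). Beside these, the fibroblast markers summed to 25067 and 24319 in Mut18 and 22028 and 21359 in Mut43, and their part was not tested.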

How the results depend on the processing

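The count-based values rest on 2 WT libraries, and peak presence rests on weak peaks of unknown depth. Leaving out 1 library at a time, the log2 fold change against WT was -4.03 to -3.91 for Grb10 and -1.54 to -1.42 for Gnas, and the Mut18 to Mut43 difference of Gnas was 0.30 to 0.35, past the threshold in 3 of the 6 cases. Relative to the chromosome median, Grb10 was at -4.37, Gnas at -1.45 and Cobl at -0.022, which turned its direction. Genes differing between the lines numbered 46, 25 with DESeq2, 24 without a filter and 3 to 70 with a library left out. Replicate numbers did not pair the libraries (correlations of deviations -0.05, 0.0032 and -0.03 over 11076 genes), and with the replicate block Gnas differed by 0.32 (adjusted p = 0.00326) and the count was 38.

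For ATAC-seq, the WT-only region near Grb10 was lost when a peak had to cover 0.5 of its region (0) or with equal list lengths (0). Near Gnas their number was 0 at a -log10 q of at least 10, 2 with that coverage and 0 with equal lengths. Leaving out a library gave 1 to 2 WT-only regions at each locus and 0 to 1 mutant-only regions at Gnas. A window of 100 kb raised the regions with a peak in every library to 12 near Grb10 and 7 near Gnas. Relative to the chromosome median, 1 shared Gnas region was higher in every mutant library. Why these moved was not tested, apart from the peaks that a stricter limit drops.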

Other observations

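Imprinted genes at other loci were counted beside Grb10 and Gnas, from a list made with earlier results of these libraries known, so their direction is not independent evidence. Of 54 listed, 46 were tested, 10 rose, 22 fell and 14 did not pass, with 1 rising and 10 falling over 2-fold and a median log2 fold change of -0.18. Among all tested genes 23.5% rose and 24.5% fell, and by over 2-fold 3.28% rose and 5.65% fell. The changes ran both ways. Meg3, a maternally expressed non-coding RNA of chromosome 12, went from 3048 and 3025 normalised counts in WT to between 141 and 182 in the mutants (-4.24 ± 0.058, adjusted p = 6.27e-22). Mirg, the microRNA host transcript of the same cluster, had 338 and 336 in WT and 9.01 to 16.2 in the mutants (-4.69 ± 0.15, adjusted p = 3.60e-15). Sfmbt2, a paternally expressed Polycomb-related gene, rose from 1010 and 968 to between 1831 and 2296 (1.04 ± 0.069, adjusted p = 2.11e-10). Zrsr1, a paternally expressed splicing factor gene on chromosome 11, rose from 274 and 260 to between 494 and 554 (1.00 ± 0.078, adjusted p = 2.21e-09).

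Markers of other early cell types were counted in the same way. Of 17 ESC markers 13 rose and 3 fell (23.5% and 24.5% of all tested genes), and Dppa3, a germline and naive pluripotency gene, went from 254 and 231 counts to between 812 and 934 (1.85 ± 0.077, adjusted p = 2.38e-13). Pou5f1, the core pluripotency factor, fell by 0.27 ± 0.037 (adjusted p = 4.22e-06). Of 12 tested primitive endoderm markers 3 rose and 4 fell, and Lama1, a laminin chain, rose by 1.29 ± 0.057 (adjusted p = 5.04e-13). Of 9 tested trophoblast markers 3 rose and 3 fell, and Eomes fell by 0.73 ± 0.12 (adjusted p = 4.66e-05). Tpbpa and Prl3d1 were not among the 16263 counted genes.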
